A study of Mus musculus with 5 samples.

Results

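The 10 genes described here encode surface receptors that guide regulatory T (Treg) cells into tissues: the chemokine receptor genes Ccr4, Ccr6, Ccr8, Cxcr3, Cxcr4 and Cxcr5, the chemoattractant receptor gene Gpr15, and the integrin genes Itga4, Itgae and Itgb7. They were chosen by name and not by a cut on their counts, though with earlier results of these data known. All 10 had at least 1 RNA polymerase II (Pol II) peak with its midpoint in the gene or in the 3 kb upstream, so none was without a value, and together they held 57 of 56615 peaks and were 10 of 12945 genes with a peak. Pol II was mapped by CUT&Tag, in which an antibody bound to chromatin directs a transposase to cut beside the protein, in nuclei of splenic Treg cells, gated as CD3+CD4+Foxp3-YFP+, of 8-week-old C57BL/6 mice of pooled sex. Every mouse carried Cre-YFP driven by Foxp3, so floxed alleles were deleted in Foxp3-expressing cells. Ctrl mice had 1 floxed and 1 intact Setd2 allele (Foxp3CreSetd2flox/+) and KO mice had both alleles floxed (Foxp3CreSetd2flox/flox). Setd2 is the enzyme behind the mark H3K36me3, trimethylation of lysine 36 on histone H3. All mice also received IL-2c, in which 1 μg IL-2 is bound by 5 μg of an antibody and which expands Treg cells, for 3 days and were killed 48 h later, so no group was free of this treatment. There were 2 Ctrl and 2 KO libraries of 80000 nuclei each. The labels give 2 mice for a group and the methods describe pooling of 2 mice before the sort, so p-values measure the spread between libraries that may not come from separate animals. A further IgG library was listed and is not analysed here, and no background was subtracted.

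Chemokine receptors are G protein-coupled receptors that turn a gradient of ligand into directed movement. Integrins are heterodimers of an alpha and a beta chain that hold the cell to the vessel wall or to the tissue once their activation is triggered. The beta7 chain encoded by Itgb7 pairs with the alpha4 chain of Itga4 to bind MAdCAM-1 on gut vessels, or with the alphaE chain of Itgae (CD103) to bind E-cadherin on epithelium. Pol II gathers just after the start of many genes before it moves through the gene body, so that a start-site peak and peaks further along a gene report different stages of transcription.

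Total counts over all peaks ranged from 4489646 in KO 2 to 13351007 in KO 1, and in both genotypes library 1 had more counts than library 2. The sort was checked against marker genes: all 7 Treg and T cell markers had peaks, Foxp3 and Il2ra among them, whereas 2 of 15 markers of CD8 T, B, myeloid, NK and erythroid cells had one. These were Cd79a, with 67.3 to 123 normalized counts, and Cd14, with 41.3 to 118, and neither separated the genotypes. Per kb of gene plus 3 kb upstream, Cd79a had 11.5 and Cd14 had 16.7 normalized counts. Both were above Gpr15, Itgae, Cxcr3 and Ccr6, whose levels are given below. Whether levels this low exceeded background was not tested. Over Setd2 itself the 9 peaks summed to 512 and 518 normalized counts in Ctrl and to 455 and 570 in KO. Pol II on a floxed gene need not fall with loss of its product, and the position of the floxed exons is not given in the sources used here, so this did not check the labels.

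The RefSeq promoter of 8 of the 10 genes, taken as 250 bases before to 50 bases from the start on, gave 9 windows, since Ccr6 has 2, and no window was listed for Cxcr5 or Itgae. The windows of Ccr4, Ccr8, Cxcr4, Itga4 and Itgb7 lay wholly inside a Pol II peak, and no peak touched those of Ccr6, Cxcr3 and Gpr15. The windows of the 2 genes with the most Pol II per kb are shown first and those of 2 genes whose window held no peak second (RefSeq, GRCm38.p6, 5′ to 3′ along the gene). Capitals mark exact matches to the searched motifs on either strand.
Ccr8 promoter, chr9:120091883-120092182, plus strand: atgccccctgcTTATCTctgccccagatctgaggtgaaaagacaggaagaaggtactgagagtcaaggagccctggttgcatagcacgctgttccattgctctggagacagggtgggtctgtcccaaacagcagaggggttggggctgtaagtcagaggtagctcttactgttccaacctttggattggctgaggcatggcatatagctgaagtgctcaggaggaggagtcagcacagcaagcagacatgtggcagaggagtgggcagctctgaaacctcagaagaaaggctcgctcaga
Cxcr4 promoter, chr1:128592250-128592549, minus strand: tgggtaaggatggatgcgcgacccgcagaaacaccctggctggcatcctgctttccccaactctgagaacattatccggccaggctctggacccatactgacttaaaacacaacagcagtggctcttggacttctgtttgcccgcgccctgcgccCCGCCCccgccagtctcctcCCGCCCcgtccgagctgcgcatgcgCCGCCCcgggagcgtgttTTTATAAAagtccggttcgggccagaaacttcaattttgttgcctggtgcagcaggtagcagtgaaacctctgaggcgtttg
Gpr15 promoter, chr16:58718823-58719122, minus strand: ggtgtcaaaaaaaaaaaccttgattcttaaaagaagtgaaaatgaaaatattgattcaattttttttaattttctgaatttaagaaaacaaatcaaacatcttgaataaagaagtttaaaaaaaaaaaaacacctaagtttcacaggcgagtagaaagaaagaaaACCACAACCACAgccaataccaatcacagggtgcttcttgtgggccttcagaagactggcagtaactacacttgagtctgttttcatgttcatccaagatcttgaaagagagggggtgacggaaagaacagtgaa
Cxcr3 promoter, chrX:101734098-101734397, minus strand: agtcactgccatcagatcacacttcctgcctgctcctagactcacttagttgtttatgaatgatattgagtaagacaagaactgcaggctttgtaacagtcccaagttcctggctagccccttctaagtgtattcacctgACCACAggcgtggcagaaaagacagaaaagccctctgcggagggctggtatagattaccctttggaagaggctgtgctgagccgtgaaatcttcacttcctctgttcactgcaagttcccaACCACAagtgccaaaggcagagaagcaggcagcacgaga
Both strands were searched. The TATA box was searched as TATAAA and the GC box as GGGCGG. The motif of ETS factors was taken as CCGGAAG, that of RUNX factors as TGTGGT, that of forkhead factors as TGTTTAC and that of GATA factors as AGATAA, and an NF-kB motif was searched too. The Cxcr4 window held 3 GC boxes and 2 overlapping TATA matches, 1 on each strand, where 35.7% and 13.6% of all 32851 RefSeq promoters held at least 1. It also held 20 CpG dinucleotides, against a median of 7 over all promoters. The windows of Gpr15 and Cxcr3 each held 2 RUNX matches, which 16.8% of promoters held at least once, and the Ccr8 window held 1 GATA match, found in 11.2%. Of the windows not shown, that of Itga4 held 1 GC box and 1 RUNX match, and the windows of Ccr6 held 1 RUNX match and 1 GATA match. RUNX matches thus occurred in 4 of the 9 windows. They lay in Ccr6, Cxcr3 and Gpr15, whose windows no peak touched, and in Itga4, whose window lay in a peak. The windows of Ccr4, Ccr8, Cxcr4 and Itgb7, also in a peak, held none. No member window held an ETS, forkhead or NF-kB match, which 8.86%, 3.65% and 0.155% of promoters held. A match is a string of letters in these windows and was not tied to the binding of a factor.

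Pol II levels differed over a wide range among the 10 genes. As normalized counts per kb of gene plus 3 kb upstream, the mean over 4 libraries was 203 for Ccr8 and 194 for Cxcr4, at percentiles 98.7 and 98.6 of all genes with a peak. The single Ccr8 peak, chr9:120090292-120095006, was 4715 bp long, took in the whole gene and stood at percentile 98.9 of peak length. The next levels per kb were 41.3 for Itgb7, 34.6 for Cxcr5, 24.4 for Itga4 and 18.3 for Ccr4, at percentiles 80.1, 76.2, 68.5 and 61.4. Below the median gene lay Gpr15 with 10.6, Itgae with 6.68, Cxcr3 with 5.65 and Ccr6 with 0.934 normalized counts per kb, at percentiles 47.2, 35.7, 31.3 and 5.96. Of the 9 pairs of neighbours in this order, 6 had library ranges that did not overlap. The exceptions were Ccr8 with Cxcr4, Itgb7 with Cxcr5, and Itgae with Cxcr3.

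**Figure D1:**
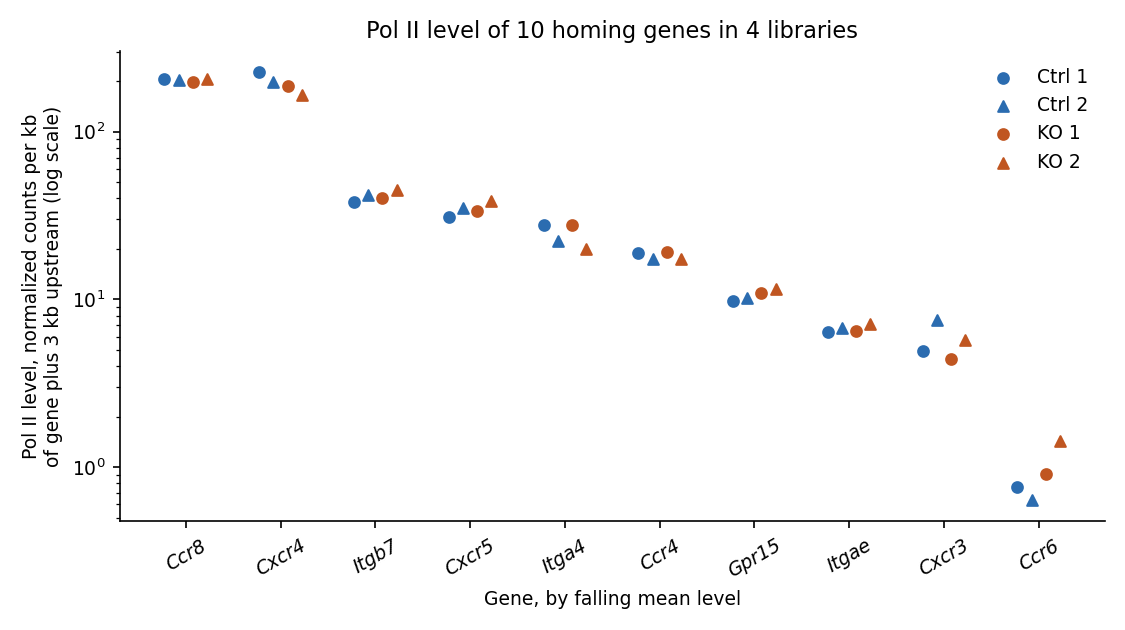
Pol II level of the 10 genes as normalized counts per kb of gene plus 3 kb upstream, on a log scale, with 1 point per library (circles, libraries numbered 1; triangles, numbered 2; blue, Ctrl; orange, KO). Ccr8 and Cxcr4 stood above the others, from 164 to 226, Ccr6 stood below them, from 0.635 to 1.44, and the genotypes lay close together beside the distance between genes.

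The genes also differed in where their peaks lay. At Ccr4, Ccr8, Cxcr4, Cxcr5, Itga4 and Itgb7 a peak covered an annotated start site. In the others the nearest peak edge was 354 bp from the start for Gpr15, 591 bp for Itgae, 710 bp for Cxcr3 and 1359 bp for Ccr6. These 4 were also the 4 genes of lowest level per kb of gene plus 3 kb upstream. Per kb of peak this did not hold, since Cxcr3, with 141, stood above Itga4 with 114 and Ccr4 with 109. Of the 57 peaks, 39 had their midpoint in an intron, 13 in an exon and 5 upstream. By distance, 24 were within 3 kb of an annotated start and are called promoter peaks. In a short gene this takes in peaks over coding sequence, such as the Cxcr4 peak over its second exon, 2737 bp from a start. Of the 57, 4 peaks were shared with another gene and cannot be credited to either, 3 of them between Itgae and Haspin, a histone kinase gene inside it, and 1 between the end of Itga4 and Cerkl.

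The comparison of KO with Ctrl addressed the effect of Setd2 loss on Pol II over these genes. None of the 10 gene sums differed at an adjusted p below 0.05 in the DESeq2 Wald test, where 13 of 12945 genes did (0.1%), and none had an unadjusted p below 0.05, where 2.88% of genes did. By edgeR's quasi-likelihood test the counts were 0 of 10 before and after adjustment, with 4.84% of all genes below 0.05 before it. The adjusted p in DESeq2 was 1.00 for each of the 10. The median log2 fold change of the 10 was 0.03, beside -0.0045 over all genes, with 6 above and 4 below 0. The 2 genotypes did not overlap for 3 of the 10 genes, lower in KO for Cxcr4 and higher in KO for Gpr15 and Ccr6, beside 34.3% of all genes. A lower count in a sorted population can come from fewer cells with Pol II on the gene or from less per cell, which cannot be told apart.

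**Figure D2:**
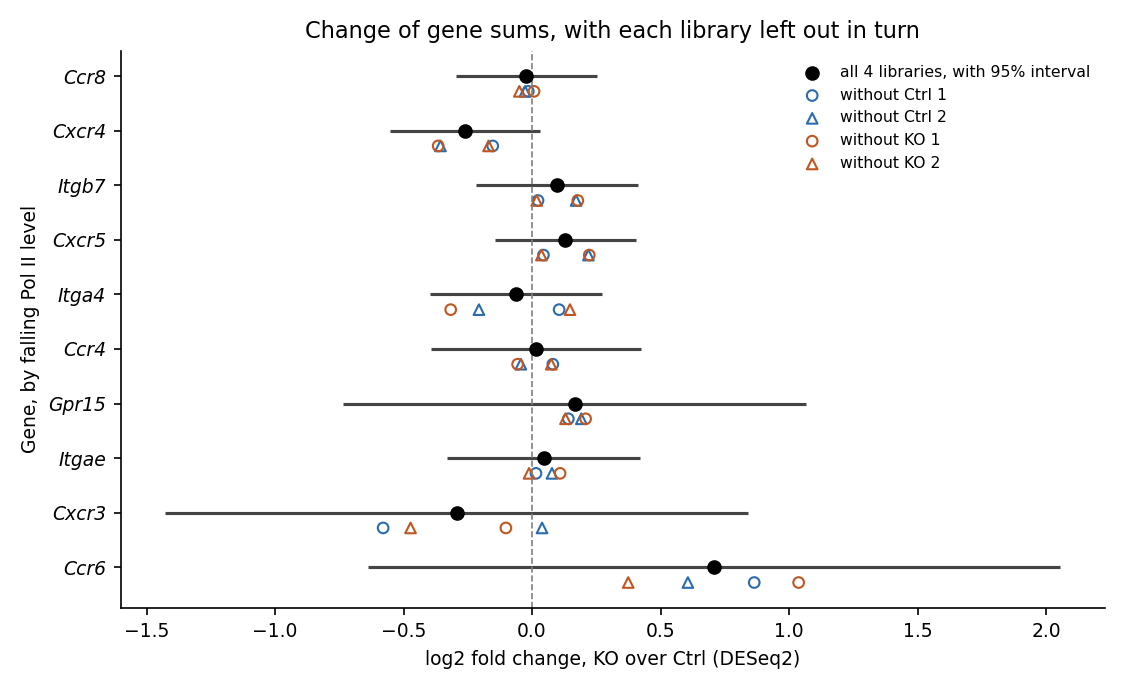
log2 fold change of the gene sum, KO over Ctrl, for each of the 10 genes (black, DESeq2 with 4 libraries; bar, 95% interval) and with each library left out (open symbols). Every interval included 0, and Ccr6 and Cxcr3, the genes of fewest counts, had the widest.

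Among the receptors linked to entry into skin, lung and inflamed tissue, Ccr8, the receptor for CCL1 that marks effector Treg cells, had 1190 and 1182 normalized counts in Ctrl and 1145 and 1193 in KO. The 4 libraries lay within a narrow band, and the log2 fold change was -0.02 ± 0.14 (SE). Its 95% interval ran from 0.814 to 1.19 on the fold scale. Ccr4, the receptor for CCL17 and CCL22, had 333 and 306 normalized counts in Ctrl and 337 and 308 in KO. Its log2 fold change was 0.01 ± 0.21. Of its 3 peaks, the one at the start site, chr9:114494924-114497035, carried most of the counts, with 234 and 196 in Ctrl and 247 and 172 in KO. In both genes the genotypes overlapped. Ccr4, Ccr8 and Cxcr5 lie on chromosome 9, as do several other chemokine receptor genes, but no peak was shared between them.

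Cxcr3, the receptor for the interferon-induced chemokines and a marker of Treg cells in type 1 inflammation, was represented by 1 peak of 230 bp upstream of the gene, with its midpoint 824 bp before the start. It held 40 and 31 raw counts in Ctrl and 43 and 19 in KO. Scaled for depth, Ctrl had 28.1 and 43.2 and KO had 25.4 and 32.9, with overlap of the genotypes and a log2 fold change of -0.29 ± 0.58. No peak lay in the Cxcr3 gene itself, so the value describes an upstream element and not Pol II within the gene. The whole peak is shown because it is the sole source of the Cxcr3 value, and none of the 7 motifs occurred in it.
Cxcr3 upstream peak, chrX:101734979-101735208, minus strand, GRCm38: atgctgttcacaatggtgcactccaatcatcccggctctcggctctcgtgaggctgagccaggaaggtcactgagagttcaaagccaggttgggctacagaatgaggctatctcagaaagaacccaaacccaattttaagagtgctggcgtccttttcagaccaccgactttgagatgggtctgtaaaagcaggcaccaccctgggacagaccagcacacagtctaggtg
The X chromosome carried 0.988% and 0.981% of counts in Ctrl and 0.966% and 0.940% in KO, and the Y chromosome 0.0860% and 0.116% in Ctrl and 0.0770% and 0.104% in KO. The sexes were pooled, and the part of their mixture in the X-linked Cxcr3 value was not tested.

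Ccr6, the receptor for CCL20 that is found on RORγt-expressing T cells and guides cells to mucosal lymphoid tissue, had 1 intronic peak of 310 bp. It had 18.2 and 15.3 normalized counts in Ctrl and 21.8 and 34.6 in KO, so that KO was the higher without overlap. The log2 fold change was 0.71 ± 0.69, with an interval from 0.643-fold to 4.15-fold, and the unadjusted p by DESeq2 was 0.302. It rested on 26 and 11 raw counts in Ctrl and 37 and 20 in KO. At this depth neither a moderate rise nor a moderate fall of Ccr6 was detectable. Gpr15, which directs T cells to the large intestine, had 1 peak of 659 bp that lay wholly within its coding exon. It had 45.6 and 47.3 normalized counts in Ctrl and 50.8 and 53.7 in KO. The genotypes did not overlap, but the log2 fold change of 0.17 ± 0.46 was small beside its error, and the unadjusted p by DESeq2 was 0.718.

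Of the receptors for positions within lymphoid organs and bone marrow, Cxcr4, the receptor for CXCL12, had 1605 and 1396 normalized counts in Ctrl and 1336 and 1167 in KO. The KO libraries were the lower pair, without overlap. The log2 fold change was -0.26 ± 0.15, with a 95% interval from -0.55 to 0.03, and the unadjusted p was 0.0789 by DESeq2 and 0.0580 by edgeR. It was the lowest p of the 10 genes in either test. The changes of the 3 Cxcr4 peaks are given one by one and were not tested against each other. The start-site peak, chr1:128590630-128593749, had 1321 and 988 normalized counts in Ctrl and 1105 and 887 in KO, which overlapped (log2 fold change -0.21 ± 0.21). A small upstream peak had 29.5 and 44.1 in Ctrl and 36.2 and 69.8 in KO, which overlapped as well (0.51 ± 0.52).

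The third Cxcr4 peak lay over the second exon, which codes for nearly all of the protein, at chr1:128588962-128590144, and 940 of its 1183 bases were coding. It had 293 and 350 normalized counts in Ctrl and 203 and 191 in KO, so that the genotypes were well apart. The log2 fold change was -0.70 ± 0.25, with an unadjusted p of 0.00539 by DESeq2 and of 0.000958 by edgeR. It did not pass adjustment over all peaks, with an adjusted p of 1.00 by DESeq2 and of 0.460 by edgeR. It was the 1 of 57 member peaks (1.75%) with an unadjusted DESeq2 p below 0.05, beside 1.53% of all peaks, 0.664% lower and 0.862% higher in KO, so the share of member peaks was near that of all peaks. With each library left out in turn the log2 fold change ran from -0.82 to -0.57, and the unadjusted DESeq2 p rose to 0.117 without Ctrl 2 and to 0.0581 without KO 2. The peak held 17.8% (95% Wilson interval 16.3 to 19.5) and 25.3% (22.7 to 28.1) of the Cxcr4 counts in Ctrl, and 15.1% (13.7 to 16.6) and 16.6% (14.0 to 19.6) in KO. Both Ctrl shares were above both KO shares, and the interval of Ctrl 1 overlapped those of both KO libraries. The central 300 bases of the peak are shown because it had the lowest p of the 57 peaks. None of the 7 motifs occurred in them.
Cxcr4 second-exon peak, centre, chr1:128589404-128589703, minus strand, GRCm38: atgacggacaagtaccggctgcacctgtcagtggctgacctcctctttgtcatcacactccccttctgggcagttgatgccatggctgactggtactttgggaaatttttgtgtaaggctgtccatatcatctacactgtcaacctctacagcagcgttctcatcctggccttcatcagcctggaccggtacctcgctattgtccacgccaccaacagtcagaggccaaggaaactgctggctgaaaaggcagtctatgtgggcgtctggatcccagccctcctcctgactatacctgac

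Cxcr5, the receptor for CXCL13 that brings T cells to B cell follicles, had 13 peaks over 50091 bp. They summed to 1644 and 1860 normalized counts in Ctrl and to 1794 and 2043 in KO, which overlapped, with a log2 fold change of 0.13 ± 0.14. Its annotated gene has 5 start sites, of which 1 lay inside a peak, and Pol II was spread over the gene without a dominant start-site peak. One intronic peak, chr9:44519236-44520072, had 66.1 and 78.5 normalized counts in Ctrl and 92.7 and 131 in KO. It was apart between genotypes, with a log2 fold change of 0.62 ± 0.37 and an unadjusted p of 0.0364 by edgeR but of 0.0945 by DESeq2. With the Cxcr4 exon peak it made 2 of 57 member peaks below 0.05 before adjustment in edgeR, beside 3.63% of all peaks, and none of the 57 passed adjustment in either test, where 0% of all peaks did in DESeq2 and 0.0477% in edgeR.

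**Figure D3:**
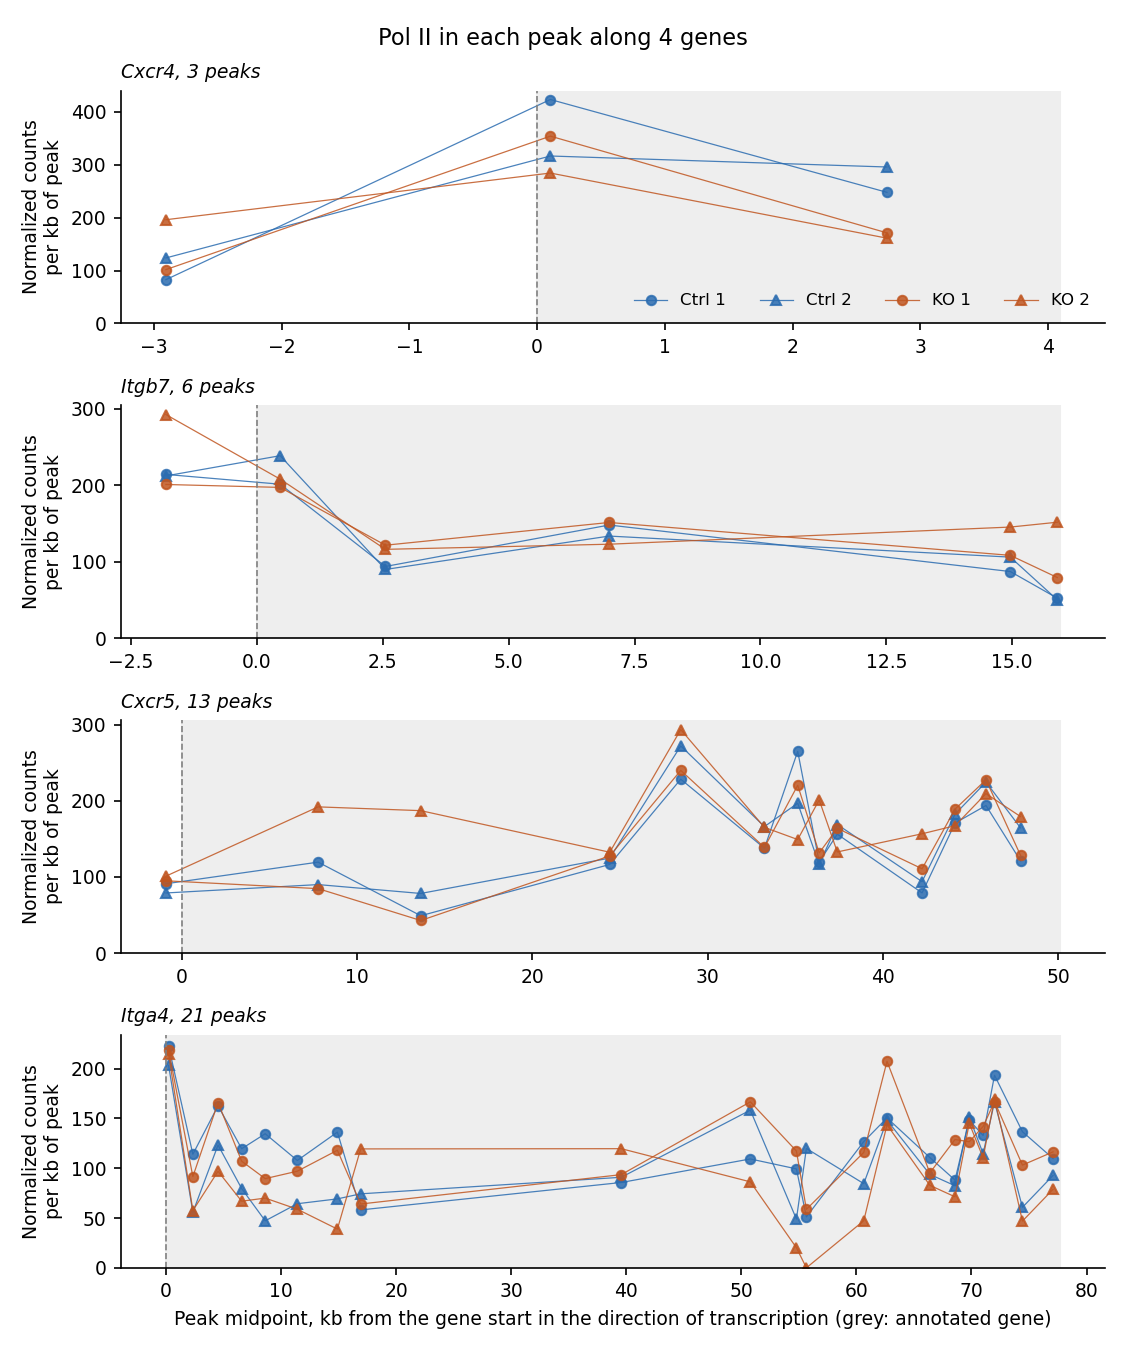
Normalized counts per kb of peak in each peak of Cxcr4, Itgb7, Cxcr5 and Itga4, against the distance of the peak's midpoint from the gene start in kb (circles, libraries numbered 1; triangles, numbered 2; blue, Ctrl; orange, KO; lines join the peaks of 1 library; grey, the annotated gene). In Cxcr4 the KO libraries lay below the Ctrl libraries at the right-hand peak, over the second exon, and in Itga4 the triangles lay below the circles in most peaks after the first.

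The 3 integrin genes share chains, since Itgb7 encodes the partner of both others. Itgb7 had 717 and 796 normalized counts in Ctrl and 765 and 855 in KO over 6 peaks, which overlapped (log2 fold change 0.10 ± 0.16). Its start-site peak had 292 and 346 in Ctrl and 286 and 301 in KO (log2 fold change -0.12 ± 0.24). At the other end of the gene the last peak, chr15:102215925-102216171, had 12.9 and 12.4 in Ctrl and 19.6 and 37.5 in KO. The KO libraries were the higher there, but the log2 fold change of 1.13 ± 0.72 rested on the lowest counts of the gene and gave an unadjusted DESeq2 p of 0.116. Itgae had 385 and 402 normalized counts in Ctrl and 390 and 424 in KO over 7 peaks, with overlap and a log2 fold change of 0.05 ± 0.19. Its peaks were small, none lay over its start, and the 3 shared with Haspin held the largest of them. That largest peak had 139 and 114 normalized counts in Ctrl and 119 and 133 in KO. The Itgae sum, its level per kb and its promoter share therefore rest in part on counts that cannot be credited to it. With unshared peaks alone the log2 fold change was 0.05.

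Itga4 had the most peaks, 21 over 77698 bp, with 2228 and 1797 normalized counts in Ctrl and 2231 and 1619 in KO. The genotypes overlapped and the log2 fold change was -0.06 ± 0.17. The start-site peak was even, at 466 and 426 in Ctrl and 459 and 450 in KO. The other 20 peaks summed to 1815 and 1353 in Ctrl and to 1786 and 1143 in KO, so that they were lower in the library numbered 2 of both genotypes, and 17 of the 20 were lower there on average. The start-site peak was 54.9% GC and the other 20 were between 39.1% and 49.2% GC. The libraries numbered 2 were also the shallower of each genotype, and the part of depth or base composition in this gap was not tested. One intronic peak, chr2:79310957-79311209, had a count of 0 in KO 2 and 14.9 normalized counts in KO 1, beside 12.9 and 30.3 in Ctrl.

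For the 4 genes with both promoter and gene body peaks, the share of counts in promoter peaks was compared to ask whether Pol II shifted along the gene. Cxcr4 was not among them, since all 3 of its peaks, the second-exon peak included, count as promoter peaks. The share was 33.9% and 30.4% in Ctrl and 30.9% and 32.0% in KO for Cxcr5, and 7.85% and 10.4% in Ctrl and 6.21% and 11.0% in KO for Itgae. It was 71.5% and 76.0% in Ctrl and 72.2% and 79.4% in KO for Itgb7, and 24.9% and 26.7% in Ctrl and 24.1% and 31.4% in KO for Itga4. In each gene the genotypes overlapped. In Itgb7 the 2 peaks at the end of the gene count as promoter peaks, because a short transcript is annotated to start there. Summed over the 4 genes the KO share was 1.13 percentage points above the Ctrl share, with an exact two-sided permutation p of 1.00, where 2 against 2 libraries cannot give less than 0.333.

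Across all 57 peaks, 27 had a log2 fold change above 0 and 30 below, with a median of -0.02, beside -0.0094 over all peaks. The genotypes did not overlap in 13 peaks (22.8%), 11 of them higher and 2 lower in KO, beside 32.3% of all peaks, of which 16.2% were higher and 16.1% lower. The share apart among the 57 was below that of all peaks.

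**Figure D4:**
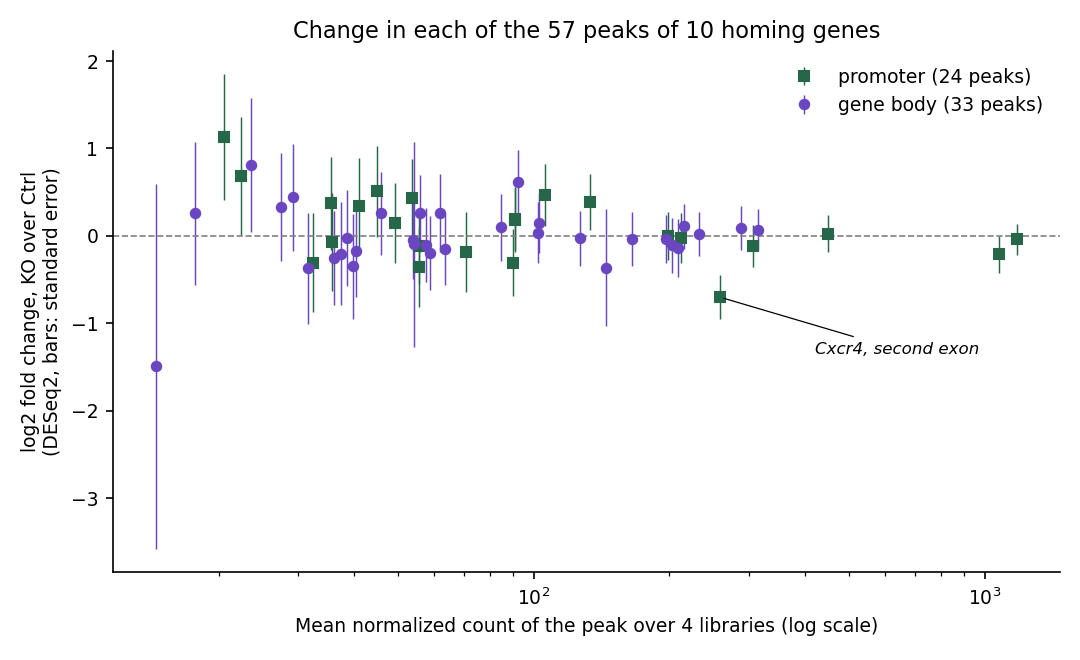
log2 fold change, KO over Ctrl, against the mean normalized count on a log scale for each of the 57 peaks (green squares, promoter; purple circles, gene body; bars, standard error). The scatter narrowed with rising count, and the Cxcr4 second-exon peak, at -0.70, lay below the other peaks of similar or higher count. By its distance from a start that peak is drawn as a promoter peak.

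Genes that act with these receptors were listed in 4 groups, and none of their members passed adjustment in DESeq2 or edgeR. Of 20 other chemoattractant receptors, 11 had a peak, and their median log2 fold change was 0.0087. Of these 11, 3 had an unadjusted DESeq2 p below 0.05, beside 2.88% of all genes. Ccr9, the gut-homing receptor for CCL25, was the higher in KO, with 584 and 613 normalized counts in Ctrl and 756 and 770 in KO (log2 fold change 0.35 ± 0.16). Cxcr6 was higher in KO as well, with 7.72 and 13.9 in Ctrl and 23.0 and 43.3 in KO (1.63 ± 0.74). Cx3cr1 was the lower in KO, with 12452 and 12278 in Ctrl and 10898 and 10357 in KO (-0.22 ± 0.11). Of the 10 Ccr9 peaks 3 were shared with another gene, and its largest peak, with 26.3% of the counts, had a log2 fold change of -0.08 ± 0.30. The Cxcr6 value came from 1 peak of 240 bp shared with Fyco1. Of the Cx3cr1 counts, 67.8% came from 1 peak of 19.6 kb shared with Csrnp1, 92832 bp from the nearest Cx3cr1 start, so they cannot be credited to Cx3cr1.

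Of 28 other integrins and adhesion molecules 20 had a peak, with a median of 0.02. Cd44, the hyaluronan receptor, was the 1 of these 20 with an unadjusted DESeq2 p below 0.05, near the 2.88% of all genes, at 441 and 510 normalized counts in Ctrl and 334 and 339 in KO. Its log2 fold change was -0.49 ± 0.19 and its unadjusted DESeq2 p 0.0108. All 20 genes of receptor signalling and integrin activation had peaks, with a median of -0.06. Rap1b, a small GTPase of integrin activation, was the 1 of 20 below 0.05 in DESeq2, again near that share. It had 7460 and 6400 in Ctrl and 6024 and 4861 in KO (-0.35 ± 0.14). Of the Rap1b counts, 75.8% came from 1 peak of 22.6 kb, with its midpoint 11740 bp from the nearest start. The log2 fold change of that peak was -0.44 ± 0.19. Of 14 ligands of the receptors and integrins 3 had a peak, and Ccl1, a ligand of CCR8, was the 1 of these 3 below 0.05, with 312 and 348 in Ctrl and 213 and 249 in KO (-0.52 ± 0.22). Its annotated gene plus upstream region spans 132 kb and holds 3 peaks. By edgeR, 4, 1, 3 and 1 genes of the 4 lists had an unadjusted p below 0.05, beside 4.84% of all genes.

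**Figure D5:**
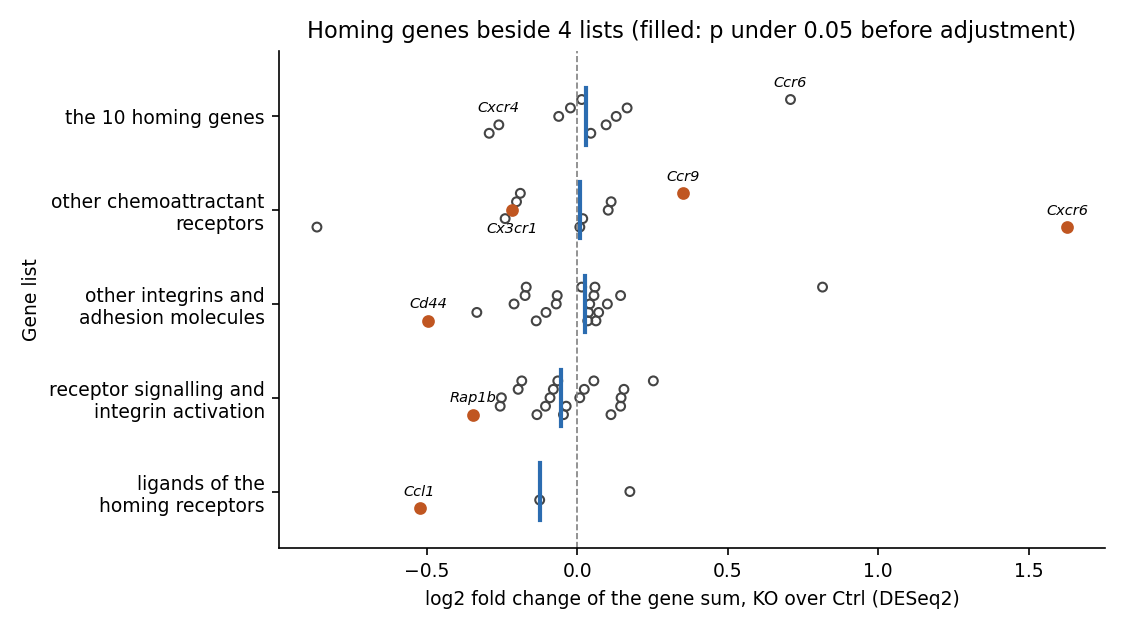
log2 fold change of the gene sum, KO over Ctrl, for the 10 homing genes and 4 lists of related genes with a peak (1 point per gene; filled orange, unadjusted DESeq2 p below 0.05; blue bar, median of the list). The medians lay between -0.12 and 0.03, and most points lay near 0.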

How the data were processed

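Pol II CUT&Tag reads of 2 Ctrl and 2 KO libraries had been trimmed, aligned to mm10 with Bowtie2, limited to unique reads and freed of duplicates by the authors. MACS2 peaks, called over IgG with a p-value limit of 0.01, were merged with bedtools. The deposited table holds raw counts per merged peak, and the authors stated no tool versions. Peaks were chosen on the same libraries that are compared, and reads outside peaks were not counted. No column of per-sample values lacked a sample (0 columns).

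Genes were taken from GENCODE vM21 (GRCm38). A peak was given to a gene where its midpoint lay in the gene or up to 3 kb upstream, with long non-coding genes used where no protein-coding gene qualified, and counts were summed per gene. Both tables were fitted whole by the DESeq2 1.42.0 Wald test in R 4.3.3, the tool the study names. Genotype was the only term, with median-of-ratios size factors and two-sided testing. The Benjamini-Hochberg adjustment, at 0.05, ran over the features kept by DESeq2's independent filtering, which leaves features of low mean count without an adjusted p. In the main fit every member gene and member peak had one. The script was tested on simulated data. Normalized counts are counts divided by the size factors, which for genes were 1.42, 0.718, 1.69 and 0.578 in Ctrl 1, Ctrl 2, KO 1 and KO 2. Peaks had size factors of their own, 1.39, 0.726, 1.68 and 0.587 in the same order. Normalized counts of a gene's peaks therefore do not add up exactly to the value of the gene. All 10 genes and 57 peaks had a mean of at least 10 counts. CUT&Tag reads carry no strand. Wilson intervals cover counting error only, since amplified reads are not independent molecules.

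Alternatives were edgeR 4.0.16, other scalings, a count minimum, a replicate block, each library left out, and other rules for assigning peaks. The members and the lists were chosen with earlier results of these data known. All members were named with their peaks, and of each list the genes with an unadjusted p below 0.05 in DESeq2.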

Additional observations from a re-analysis of the deposited data

How the results depend on the processing

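No gene sum of the 10 passed adjustment under any alternative (lowest adjusted p 0.156 for Cxcr4, DESeq2 with the block), and no member peak did (lowest 0.453). Not every alternative gave each of them an adjusted p, since DESeq2 filters out features of low mean count. With the block, Cxcr3, Gpr15, Ccr4, Ccr6, Itgae, Itgb7 and many member peaks had none and could not pass. Under assignment by any overlap the same held for Cxcr3, Gpr15 and Ccr6. Over all peaks the count at adjusted p below 0.05 was 0 in DESeq2 but 27 in edgeR and 25 with the replicate block, and 0 to 5 with a library left out (0 without Ctrl 1 or KO 1, 5 without Ctrl 2, 3 without KO 2). Over all genes it was 13, against 0 in edgeR, 114 with the block, 7 with unshared peaks alone, and 0 to 3 with a library left out (0 without Ctrl 1 or KO 1, 2 without Ctrl 2, 3 without KO 2). The cause was not tested. The numbers 1 and 2 are not stated to pair libraries; deviations of same-numbered libraries correlated at 0.233 across 56615 peaks, and with the block the unadjusted p of Cxcr4 was 0.0146.

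Of 80 values of the gene sums under alternatives with all libraries, 78 kept their direction. With promoter peaks alone Itga4 was 0.020 and Itgae -0.046 (log2). Many of the 80 could hardly differ from the main fit. The count minimum removed none of the 12945 genes. Promoter peaks alone kept every peak of all but Cxcr5, Itga4, Itgae and Itgb7. Unshared peaks alone kept every peak of all but Itga4 and Itgae. Leaving out a library turned 7 of 40, with ranges of -0.58 to 0.039 for Cxcr3, -0.056 to 0.081 for Ccr4, -0.049 to 0.0076 for Ccr8, -0.012 to 0.11 for Itgae and -0.32 to 0.15 for Itga4. Among 8 named peaks it turned the start-site peaks of Cxcr4 (-0.40 to 0.023), Itgb7 (-0.23 to 0.0068), Itga4 (-0.038 to 0.10) and Ccr4 (-0.33 to 0.20), the last also under total-count scaling (0.0033). The promoter share difference over 4 genes ran from -1.89 to 4.15 points with a library left out. Per kb of peak, the order of levels had 3 of 9 neighbours apart instead of 6, and 2 genes kept their place. Depth limited Cxcr3, Ccr6 and Gpr15. Their 95% intervals ran from 0.372-fold to 1.79-fold for Cxcr3, from 0.643-fold to 4.15-fold for Ccr6 and from 0.601-fold to 2.09-fold for Gpr15.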

Other observations

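The gap between the libraries numbered 1 and 2 exceeded the change with genotype in 7 of the 10 genes, and it had the same sign in Ctrl and KO in 8 of them. Itga4 had the widest gap among the genes with at least 3 peaks: its log2 ratio of library 2 over library 1 was -0.31 in Ctrl and -0.46 in KO. The median over its 21 peaks was -0.47, beside 0.12 over the other 36 member peaks and 0.02 over all peaks. Of the genes with 1 peak and few counts, Cxcr3 had ratios of 0.62 in Ctrl and 0.37 in KO, and Ccr6 had -0.25 and 0.66. The median GC content was 42.0% for the Itga4 peaks, 49.3% for all 57 and 51.1% for all peaks. Across the 57 peaks, GC content and the log2 ratio, averaged over the genotypes, had a Pearson correlation of 0.55. Within Itga4 it was 0.24 and over the other 36 member peaks 0.21. The part of GC content in the gap was not tested.

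Repeat-masked bases made up a median of 11.1% of the member peaks and 10.1% of all peaks.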
